A study of Homo sapiens with 6 samples.

Results

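Caspases are proteases that cut other proteins after aspartate and carry out apoptosis, and 8 genes of their death receptor and mitochondrial arms were followed here: the initiator caspases CASP2, CASP8, CASP9 and CASP10, the executioner caspase CASP6, the adaptor FADD, and the inhibitors CFLAR and XIAP. They were taken by gene name from a table of 33707 genes, and 8 of 8 were found. The cells were Huh7, an established line from a human hepatocellular carcinoma, transfected with mimics-NC, a negative control, or with miR-361-3p mimics, which are synthetic copies of a microRNA, and sampled at day 2. Each group held 3 libraries of total RNA taken through a stranded mRNA kit. Transfection used a lipid reagent. The treatment tag of the mimics-NC libraries speaks of wild type cells, while their titles give mimics-NC, which was taken as their group; no other allele or agent is named. The cell line tag of replicate 3 of the mimic group reads Huh8, while its title reads Huh7, and it was kept. Huh7 is 1 line, and the labels do not state if each replicate came from its own culture. P-values therefore reflect library-to-library spread, which may be technical. In bulk RNA, fewer cells of a kind and less RNA per cell cannot be told apart.

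The libraries held 35020139 to 52977132 assigned reads. Squared differences between replicates were 3.92 to 8.58 times those of counting error alone (chi-square per degree of freedom), so no library was counted as a copy of another. Of 10 hepatocyte markers 9 reached a mean of 1 RPKM (assigned reads scaled to gene length in kilobases and to library size), with TTR at 0.271 and 0.584 RPKM the exception and AFP at 1.24 and 1.18 RPKM in the mimics-NC and mimic libraries. Immune cell markers summed to 34.9 to 38.0 RPKM, nearly all of it CD68, and endothelial markers to 4.25 to 4.67 RPKM, nearly all PECAM1, while PTPRC, CD3E, CD14, VWF and KRT19 were each under 0.2 RPKM in both groups. Markers of cholangiocytes (0 of 4 at 1 RPKM or more) summed to 1.09 to 1.42 RPKM without and 1.54 to 1.65 RPKM with the mimic. Those of fibroblast or stellate cells (0 of 4) summed to 1.641 to 2.76 RPKM without and 1.30 to 1.635 RPKM with it, so both sums separated the groups, in opposite directions, and their part in the results was not tested.

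In the death receptor route, ligands such as TRAIL bind receptors whose cytoplasmic death domains recruit FADD. FADD then gathers CASP8 and CASP10 through paired death effector domains, where they activate each other, while the CASP8 relative encoded by CFLAR (the protein cFLIP) lacks protease activity and competes for the same sites. In the mitochondrial route, cytochrome c and APAF1 form the apoptosome that activates CASP9. Both routes end in executioner caspases such as CASP6, and XIAP binds and blocks caspases of these routes, CASP9 among them. CASP2 is switched on by another platform, built of PIDD1 and CRADD. In hepatocytes the receptor signal usually needs the mitochondrial route to reach full strength.

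The agent under study acts through its sequence, so that sequence is shown first, with the seed (bases 2 to 8) in capitals, from RefSeq (GRCh38.p14, chrX:85903641-85903663, minus strand). That the mimic carries the same letters was not checked.
hsa-miR-361-3p: uCCCCCAGgugugauucugauuu

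Seed matches in the 3′ untranslated regions of the 8 genes were searched in coding transcripts of GENCODE release 29 (GRCh38). An 8mer (CTGGGGGA) was present in 0 of the 8 genes, a 7mer-m8 (CTGGGGG) in CFLAR, and a 7mer-A1 (TGGGGGA) in CASP10, CFLAR and XIAP. Of 9582 tested protein-coding genes with an annotated 3′ untranslated region, 27.2% held at least 1 of the 3 kinds, 6.13% an 8mer, 13.4% a 7mer-m8 and 14.5% a 7mer-A1. CASP2, CASP6, CASP8, CASP9 and FADD held 0 matches. The longest annotated 3′ untranslated region was 12714 bases for CFLAR, 6798 for XIAP and 4574 for CASP10, against a median of 1312 over those genes. The 6 matches are shown because base pairing with the mimic could reach these genes through them, with the match in capitals and flanking bases in lower case. Shorter matches, other kinds of pairing and sequences outside these annotated regions were not searched. A match is not a shown target.
CASP10, chr2:201220336-201220342, plus strand: gagggaggtgggggggTGGGGGAagtc
CFLAR, chr2:201137145-201137151, plus strand: aggagagcaccatttcCTGGGGGgctg
CFLAR, chr2:201138850-201138856, plus strand: tctgtcacagtgtccaTGGGGGAggag
CFLAR, chr2:201165072-201165078, plus strand: gtctcccctttgaattCTGGGGGgaat
CFLAR, chr2:201166597-201166603, plus strand: ctgtaatctcggcaccCTGGGGGgcca
XIAP, chrX:123907968-123907974, plus strand: tcggggagggggggatTGGGGGAgggg

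The CFLAR matches lie in 2 transcripts, the upstream pair in 1 and the downstream pair in the other, and the gene-level values do not separate transcripts. None of the 3 genes with a match passed the test in the comparison below, and CFLAR, with 4 matches, measured 3.13 ± 0.0922 and 3.05 ± 0.163 RPKM (mean ± SD, n = 3) in the mimics-NC and mimic libraries.

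The comparison of mimic with mimics-NC libraries asked whether these genes shifted at day 2. CASP8, the initiator at the death receptor, rose by 21.7% in mean RPKM, and its adaptor FADD rose by 11.5%. Their partners CASP10 and CFLAR, the mitochondrial initiator CASP9, the executioner CASP6 and the inhibitor XIAP did not pass the test. CASP2 was lower in all mimic libraries but lay under the filter on low values. Changes were tested on log2(RPKM + 0.5) with limma over 13158 genes that averaged 1 RPKM or more, and rose or fell is written of a gene whose Benjamini-Hochberg adjusted p over all of them was under 0.05. Adding 0.5 shrinks the changes of genes at low level.

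Of the 8 genes, 7 passed the filter, 2 rose and 0 fell by limma, where 11.7% of all genes tested rose and 9.85% fell (21.5% in either direction); 3 of the 7 had an unadjusted p under 0.05, as did 35.9% of all genes. By voom, a weighted fit of recovered reads, 3 of the 7 were called higher and 0 lower, beside 14.2% and 14.5% of all genes. The median log2 fold change of the 7 was 0.12, against 0.012 over all genes tested. The groups did not overlap for 3 of the 7, CASP8, FADD and CASP9, while 41.4% of all genes tested did not overlap.

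**Figure D1:**
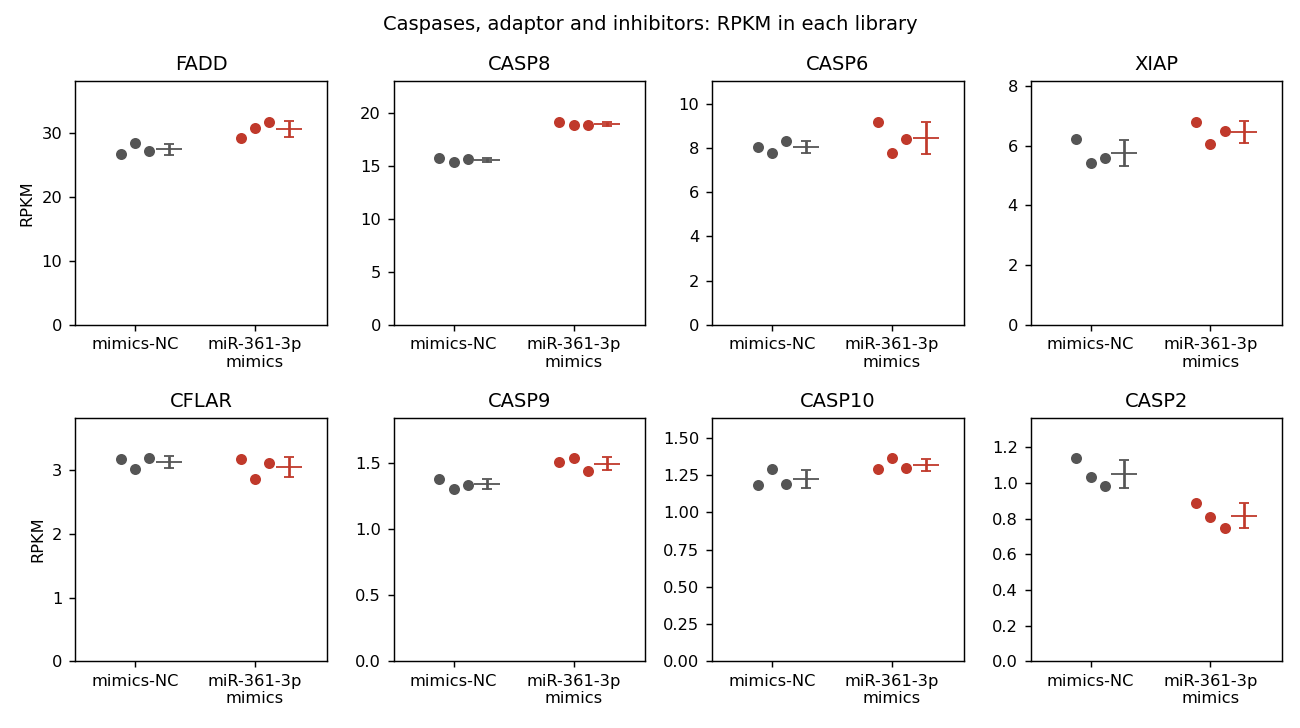
RPKM of the 8 genes in each library (points), with mean and SD (bars, n = 3), for mimics-NC (grey) and miR-361-3p mimics (red), each panel from 0 on its own scale. The mimic libraries lie at 18.9 to 19.2 RPKM for CASP8, above 15.4 to 15.7 in the mimics-NC libraries, and for CASP2 they lie below all mimics-NC libraries.

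CASP8 (chromosome 2, 201233443 to 201287711, GRCh38, plus strand) is the initiator caspase recruited to death receptors. It measured 15.7, 15.4 and 15.7 RPKM in mimics-NC replicates 1 to 3 and 19.2, 18.9 and 18.9 RPKM in the mimic replicates, on 4811 to 6125 reads. All 3 mimic libraries lay above all 3 mimics-NC libraries, and the spread within a group was small, with a coefficient of variation of 1.18% and 0.941%. The means were 15.6 ± 0.185 and 19.0 ± 0.179 RPKM, a log2 fold change of 0.28 with a standard error of 0.032 (limma adjusted p = 0.00168). The 95% interval of the change ran from 14.9% to 27.5% on the RPKM + 0.5 scale. CASP8 kept its call with any 1 of the 6 libraries left out and under the 11 other settings tried.

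FADD (chromosome 11, 70203163 to 70207390, plus strand) is the adaptor that links receptors to CASP8. It measured 26.8, 28.5 and 27.3 RPKM under mimics-NC and 29.3, 30.8 and 31.8 RPKM under the mimic, on 1892 to 2775 reads. The groups did not overlap, but the highest control library lay within 1 RPKM of the lowest mimic library. The log2 fold change was 0.15 with a standard error of 0.043 (limma adjusted p = 0.0435) and a 95% interval of 3.75% to 19.4%. Leaving out any 1 library except mimic replicate 1 ended the call (limma adjusted p up to 0.129), as did fits under median-of-ratios scaling (0.0761), quantile normalization (0.0574), without a filter (0.0995) and without the intensity trend (0.0715). FADD overlaps RP11-805J14.5 on the opposite strand, which measured 9.02 ± 0.269 and 8.86 ± 0.130 RPKM, and whether reads were shared was not tested.

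CASP8 and FADD are the members called by limma, so their promoter windows are shown (RefSeq, GRCh38.p14, 250 bases before to 50 after an annotated start, plus strand). Shared control of the 2 genes was not tested. For CASP8, which has 3 annotated windows, it is the one at the start of the gene. Capitals mark matches to any of 8 motifs searched on both strands: the GC box GGGCGG, the interferon element ISRE, AP-1 TGACTCA, E2F TTTCCCGC, CRE TGACGTCA, ETS CCGGAAG, the NF-kB motif and the NRF1 palindrome.
CASP8, chr2:201233213-201233512: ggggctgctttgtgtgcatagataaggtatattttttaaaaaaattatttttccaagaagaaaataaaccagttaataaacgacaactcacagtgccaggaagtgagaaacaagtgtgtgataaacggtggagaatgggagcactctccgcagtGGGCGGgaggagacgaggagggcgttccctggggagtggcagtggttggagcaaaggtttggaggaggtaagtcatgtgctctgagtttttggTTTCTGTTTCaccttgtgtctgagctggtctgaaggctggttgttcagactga
FADD, chr11:70203046-70203345: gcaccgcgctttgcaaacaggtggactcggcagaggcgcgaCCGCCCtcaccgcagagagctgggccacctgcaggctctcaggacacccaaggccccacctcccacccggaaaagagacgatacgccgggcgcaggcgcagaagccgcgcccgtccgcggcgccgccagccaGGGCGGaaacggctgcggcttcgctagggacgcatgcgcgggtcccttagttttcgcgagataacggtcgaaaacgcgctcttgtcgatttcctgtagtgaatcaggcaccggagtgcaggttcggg

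The CASP8 window held 1 GC box and 1 interferon element, and the FADD window held 2 GC boxes and 0 matches to the other motifs. Of 35116 promoter windows of 300 bases, 44.95% held a GC box and 3.57% the interferon element. The other CASP8 windows each held 1 AP-1 match, a motif in 4.95% of windows. Of the other genes, CASP9 held the most GC boxes, 8 and 9 in its 2 windows, with 1 ETS match in the former. CASP6 held 3 in its 1 window, CASP2 4 and 0, CFLAR 0 to 2 over 4 windows and XIAP 0 to 2 over 3 partly overlapping windows. CASP10 had no window in the table used. The gene-level values do not show which start was used, and a match is a description of letters only.

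**Figure D2:**
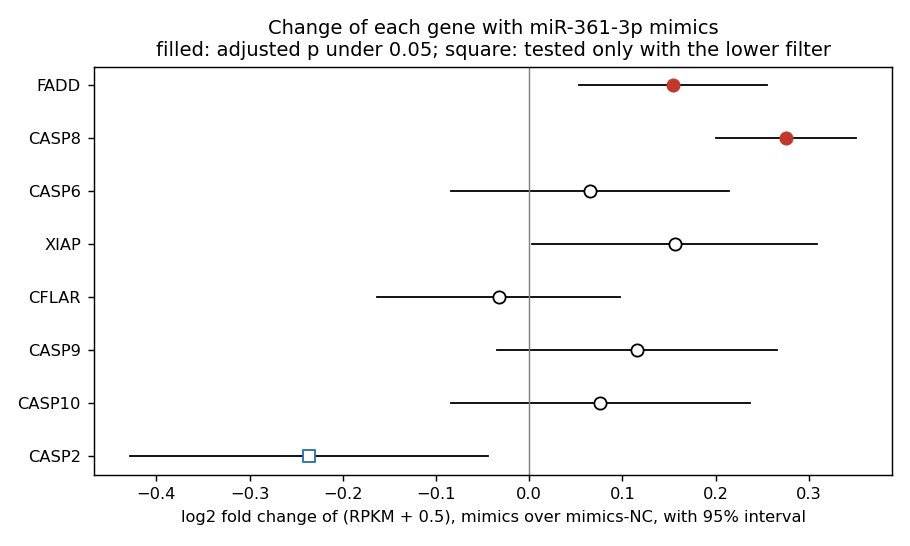
Log2 fold change of (RPKM + 0.5), mimics over mimics-NC (points), with 95% intervals from limma (lines, n = 3 per group); filled points passed the adjusted threshold and the square marks CASP2, tested only with a filter of 0.5 RPKM. The intervals of CASP8 and FADD lie above 0, that of XIAP starts at 0.003, and those of CASP6, CFLAR, CASP9 and CASP10 cross 0.

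CASP10 (chromosome 2, 201182881 to 201229406, plus strand), the close relative of CASP8, measured 1.19, 1.29 and 1.19 RPKM under mimics-NC and 1.29, 1.36 and 1.30 RPKM under the mimic, on 343 to 520 reads. The groups overlapped, through mimics-NC replicate 2. The log2 fold change was 0.076 with a 95% interval from -0.084 to 0.24 (limma adjusted p = 0.463), so a rise as large as the lower bound for CASP8 was within reach.

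CFLAR (chromosome 2, 201116104 to 201176687, plus strand) makes the inhibitor cFLIP. It measured 3.18, 3.02 and 3.19 RPKM under mimics-NC and 3.18, 2.87 and 3.11 RPKM under the mimic, on 2506 to 3608 reads. The groups overlapped, and the log2 fold change of -0.033 (limma adjusted p = 0.71) had a 95% interval from -0.16 to 0.097. That interval, -10.7% to 6.99%, lies wholly below that of CASP8. CFLAR-AS1, which overlaps CFLAR on the opposite strand, measured 1.77 ± 0.129 and 1.97 ± 0.120 RPKM. AC007283.5, which overlaps CFLAR on the same strand, measured 6.77 ± 0.249 and 6.43 ± 0.930 RPKM. Whether reads were shared was not tested.

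XIAP (chromosome X, 123859724 to 123913979, plus strand), the caspase-binding inhibitor, measured 6.23, 5.43 and 5.59 RPKM under mimics-NC and 6.81, 6.07 and 6.51 RPKM under the mimic. Mimics-NC replicate 1 lay above mimic replicate 2, so the groups overlapped. The log2 fold change was 0.16 with a standard error of 0.065 (limma adjusted p = 0.133), and voom called it higher (adjusted p = 0.0414).

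CASP9 (chromosome 1, 15490832 to 15526534, minus strand), the apoptosome's caspase, measured 1.39, 1.31 and 1.34 RPKM under mimics-NC and 1.51, 1.54 and 1.44 RPKM under the mimic, on 279 to 365 reads. The groups did not overlap, yet the log2 fold change of 0.12 (standard error 0.064) did not pass (limma adjusted p = 0.238), and its 95% interval ran from -0.034 to 0.27. CASP6 (chromosome 4, 109688622 to 109703583, minus strand), the executioner that cleaves lamins, measured 8.06, 7.77 and 8.31 RPKM under mimics-NC and 9.20, 7.78 and 8.403 RPKM under the mimic. Mimic replicate 1 alone stood above the rest, and the log2 fold change of 0.066 did not pass (limma adjusted p = 0.501).

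CASP2 (chromosome 7, 143288215 to 143307696, plus strand) measured 1.14, 1.03 and 0.982 RPKM under mimics-NC and 0.890, 0.810 and 0.7502 RPKM under the mimic, on 250 to 439 reads. All mimic libraries lay below all mimics-NC libraries, and the mean differed by -22.3%. Its mean over the 6 libraries, 0.934 RPKM, was just under the filter of 1, so it was not among the genes tested. With the filter set to 0.5 RPKM, chosen after seeing the data, its log2 fold change was -0.24 with a standard error of 0.081 and did not pass by limma (adjusted p = 0.0925, 8.11% of all genes fell), while voom at that filter gave -0.38 and called it lower (adjusted p = 0.00677), as it did 13% of all genes.

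By level per kilobase of the table's gene length, the order was FADD (29.1 RPKM over the 6 libraries), CASP8 (17.3), CASP6 (8.26), XIAP (6.11), CFLAR (3.09), CASP9 (1.42), CASP10 (1.27) and CASP2 (0.934). Each gene's lowest library lay above the highest library of the next gene in that order, except that CASP9 and CASP10 overlapped over the 6 libraries. The median gene tested had 5.09 RPKM, and FADD lay above 87.6% of genes tested, CASP8 above 80.3% and CASP10 above 6.97%. The table's lengths merge all exons, and for CASP8 the merged length of 7243 bases was 2.47 times its longest coding transcript of GENCODE release 29. On that transcript's length CASP8 would stand at 42.8 RPKM, above FADD at 29.1, and CASP2 at 1.77 above CASP9 at 1.68 and CASP10 at 1.63. A gene's length is the same in both groups, but it bears on the filter and on how far the added 0.5 shrinks a change: at its transcript length CASP2 would have passed the filter.

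Because the proteins cFLIP, CASP10 and CASP8 share docking sites on FADD, the RNA levels of their genes were also set against each other within each library. These ratios rest on the table's merged lengths, and protein was not measured. The ratio of CFLAR to CASP8 was 0.202, 0.196 and 0.203 under mimics-NC and 0.165, 0.152 and 0.164 under the mimic. All mimic libraries lay below all mimics-NC libraries, from a mean of 0.201 ± 0.00365 to 0.160 ± 0.00760. The ratio of CASP10 to CASP8 was 0.0753, 0.0839 and 0.0760 against 0.0671, 0.0721 and 0.0687, again without overlap. Both gave p = 0.1 by a two-sided exact permutation test, the smallest that 3 against 3 libraries allow, and 0.15 after Benjamini-Hochberg adjustment over the 3 ratios. The ratio of XIAP to CASP9 was 4.28 ± 0.194 and 4.32 ± 0.325 (exact permutation p = 0.8), with overlapping groups. Both lower ratios share CASP8 as their denominator, so they are not separate evidence.

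**Figure D3:**
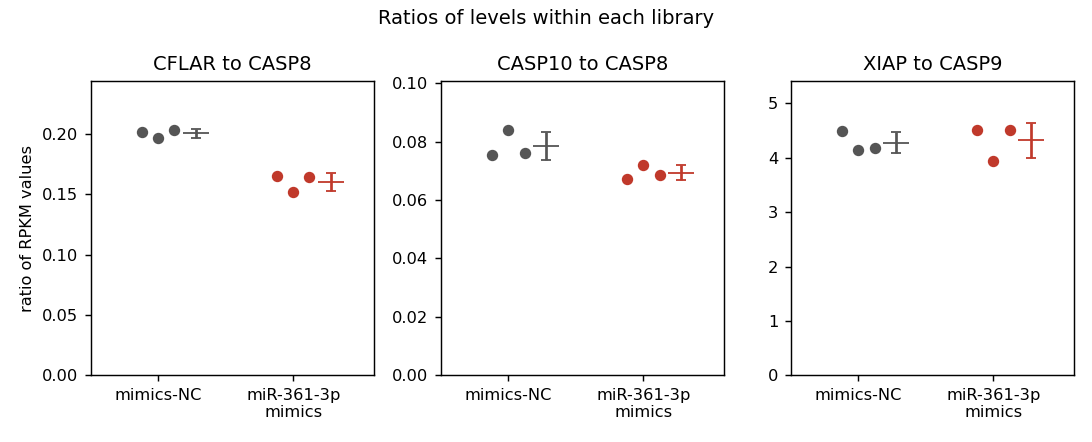
Ratios of RPKM values within each library (points), with mean and SD (bars, n = 3), for mimics-NC (grey) and miR-361-3p mimics (red), each panel from 0. CFLAR to CASP8 has means of 0.201 and 0.160 with no overlap, and XIAP to CASP9 has 4.28 and 4.32.

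CFLAR, CASP10 and CASP8 lie in that order on the plus strand of chromosome 2 within 171608 bases, with 6194 bases between CFLAR and CASP10 and 4037 between CASP10 and CASP8. Of the 3, CASP8 rose and the others did not pass. Within 300 kb of them 16 genes were tested, the 3 included. CASP8 and TRAK2, an adaptor for mitochondrial transport, rose and 0 fell by limma, beside 11.7% and 9.85% of all genes tested. TRAK2 measured 13.99 ± 0.268 and 15.5 ± 0.350 RPKM, a log2 fold change of 0.14 (limma adjusted p = 0.0306), a call that held in 1 of 6 fits with a library left out, the one without mimic replicate 1 (adjusted p up to 0.101). The other 14 had log2 fold changes of -0.28 to 0.22.

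**Figure D4:**
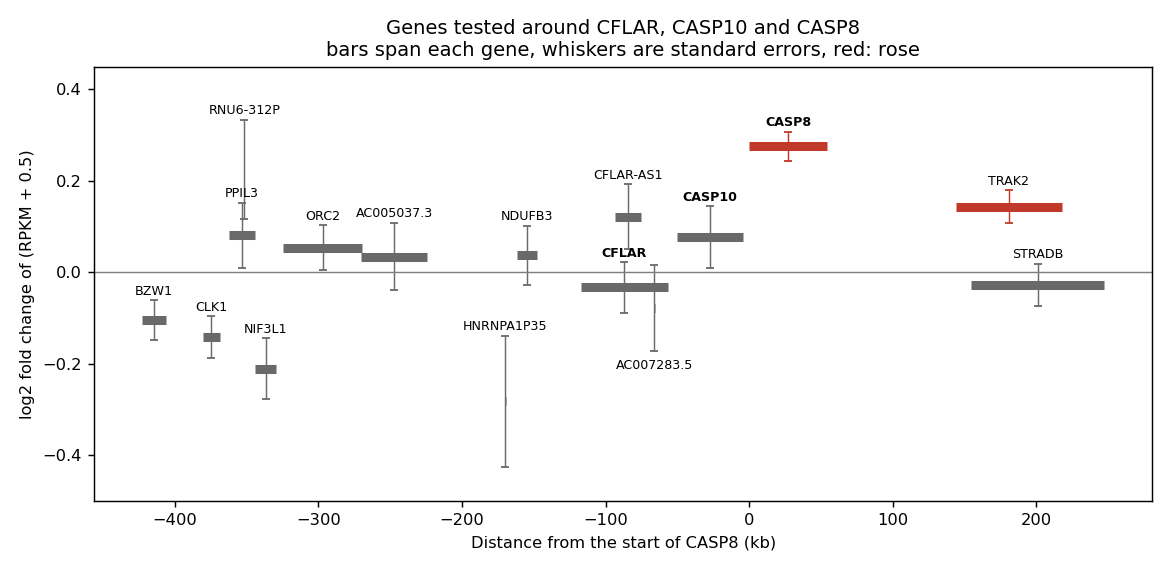
Log2 fold change of (RPKM + 0.5), mimics over mimics-NC, of the 16 genes tested within 300 kb of CFLAR, CASP10 and CASP8, against distance from the start of CASP8 in kb; bars span each gene, whiskers are standard errors (n = 3 per group) and red marks genes that rose. CASP8 stands at 0.28 between CASP10 at 0.076 and TRAK2 at 0.14.

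Around all 8 genes, 20 other genes were tested that overlap one of them or lie within 100 kb. Of these, 4 rose and 2 fell by limma, where 11.7% of all genes tested rose and 9.85% fell. Beside CASP6, PLA2G12A, a secreted phospholipase, rose from 8.04 ± 0.273 to 12.2 ± 0.136 RPKM, and CFI, complement factor I, from 19.9 ± 0.643 to 22.4 ± 0.199 RPKM. CCDC109B, a subunit of the mitochondrial calcium channel that overlaps CASP6 on the opposite strand, fell from 3.20 ± 0.227 to 2.45 ± 0.219 RPKM. GSTK1, a glutathione transferase near CASP2, rose from 6.67 ± 0.111 to 8.23 ± 0.521 RPKM, and DDI2, a protease near CASP9, fell from 5.42 ± 0.0985 to 4.13 ± 0.0440 RPKM. With 1 library left out, PLA2G12A, GSTK1 and DDI2 kept their call in 6 of 6 fits, and CFI and CCDC109B in 2 of 6 (adjusted p up to 0.0660 and 0.0781 by limma). The 14 that did not pass, at log2 fold changes of -0.28 to 0.41, were ZYX, AC093673.5, NDUFB3, CFLAR-AS1, AC007283.5, HNRNPA1P35, EFHD2, DNAJC16, AGMAT, RP4-680D5.8, AC004067.5, PPFIA1, RP11-805J14.5 and STAG2. DNAJC16 lies 279 bases from CASP9, and STAG2, of cohesin, measured 31.2 ± 1.598 and 28.8 ± 0.691 RPKM beside XIAP.

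The other genes of these routes were described from a list of 59, of which 56 were in the table and 38 passed the filter. Of the 38, 6 rose and 5 fell, beside 11.7% and 9.85% of all genes tested, with a median log2 fold change of -0.0039. Among the lists with more than 1 gene tested, the median was 0.18 for receptors, 0.14 for the apoptosome, -0.11 for adaptors and platforms, -0.073 for other IAP proteins, -0.069 for ubiquitin control, -0.026 for caspase substrates and -0.024 for IAP antagonists, against 0.012 over all genes tested.

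Among death ligands and receptors, 3 of 5 receptors tested rose and 0 fell by limma, where 11.7% of all genes tested rose and 9.85% fell. TNFRSF21, death receptor DR6, measured 6.24, 5.36 and 5.38 RPKM under mimics-NC and 7.59, 7.16 and 7.17 RPKM under the mimic, a log2 fold change of 0.34 (limma adjusted p = 0.0107). The TRAIL receptors TNFRSF10A (12.4 ± 0.222 to 14.02 ± 0.651 RPKM) and TNFRSF10B (5.38 ± 0.555 to 6.51 ± 0.230 RPKM) rose too. Each of these calls held in 1 of 6 fits with a library left out, that for TNFRSF10A lacking mimic replicate 2 and that for TNFRSF10B lacking replicate 1 of mimics-NC (limma adjusted p up to 0.0929 and 0.125). The ligand TRAIL itself, TNFSF10, measured 1.31 ± 0.263 and 1.52 ± 0.222 RPKM (limma adjusted p = 0.421). FAS, chosen with its values in view, was near the floor at 0.0622 ± 0.0128 and 0.0781 ± 0.0166 RPKM.

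Of 8 adaptors and platform genes tested, 0 rose by limma and 1 fell, beside 11.7% and 9.85% of all genes tested. The gene that fell was PEA15, a death effector domain protein that binds FADD and CASP8. Its mean was 20.05 ± 0.583 RPKM without and 14.9 ± 0.333 RPKM with the mimic, a log2 fold change of -0.41 (limma adjusted p = 0.000729), and the call held whichever library was removed. RIPK1, the kinase of the TNF receptor complex, measured 21.3 ± 0.406 and 21.6 ± 0.430 RPKM (limma adjusted p = 0.743).

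Of the remaining caspases described here, 1 passed the filter: CASP4, an inflammatory caspase, measured 2.53 ± 0.0629 RPKM under mimics-NC and rose to 3.29 ± 0.0492 RPKM under the mimic, a log2 fold change of 0.32 (limma adjusted p = 0.00452). The call was not lost when any 1 library was removed.

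In the apoptosome, CYCS, cytochrome c, rose from 136 ± 9.79 to 169 ± 18.2 RPKM, a call held in 2 of 6 fits with a library left out (adjusted p up to 0.119 by limma), while APAF1, its partner, measured 2.32 ± 0.185 and 2.28 ± 0.128 RPKM. Of 4 other IAP genes 1 fell and 0 rose by limma, beside 9.85% and 11.7% of all genes tested. BIRC5, survivin, which is also a mitotic gene, dropped from 19.6 ± 0.768 to 13.4 ± 0.369 RPKM. BIRC3 measured 14.8 ± 0.695 and 13.4 ± 0.629 RPKM (limma adjusted p = 0.0862), and voom called it lower (adjusted p = 0.0136). The IAP antagonists DIABLO (15.4 ± 0.882 and 15.7 ± 0.327 RPKM) and HTRA2 (3.01 ± 0.364 and 2.82 ± 0.177 RPKM) did not pass.

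Of 7 caspase substrates 1 fell and 0 rose by limma, beside 9.85% and 11.7% of all genes tested. PARP1, a DNA repair enzyme that caspases cleave, fell from 69.6 ± 1.13 to 60.6 ± 2.22 RPKM, while ACIN1 measured 89.4 ± 1.78 and 86.5 ± 2.44 RPKM. Of 7 genes of ubiquitin control, 1 rose and 2 fell, beside 11.7% and 9.85% of all genes tested. OTULIN, which removes linear ubiquitin chains, fell from 5.20 ± 0.108 to 3.81 ± 0.116 RPKM and CYLD, another deubiquitinase, from 1.48 ± 0.0103 to 1.12 ± 0.0627 RPKM. RBCK1, of the ligase that builds linear chains, rose from 2.27 ± 0.0977 to 2.69 ± 0.110 RPKM. The call of OTULIN held in 6 of 6 fits with a library left out, that of CYLD in 1 of 6 and that of RBCK1 in 0 of 6 (adjusted p up to 0.0736 and 0.125 by limma). MLKL, the effector of necroptosis, measured 5.50 ± 0.224 and 5.98 ± 0.180 RPKM (limma adjusted p = 0.14).

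**Figure D5:**
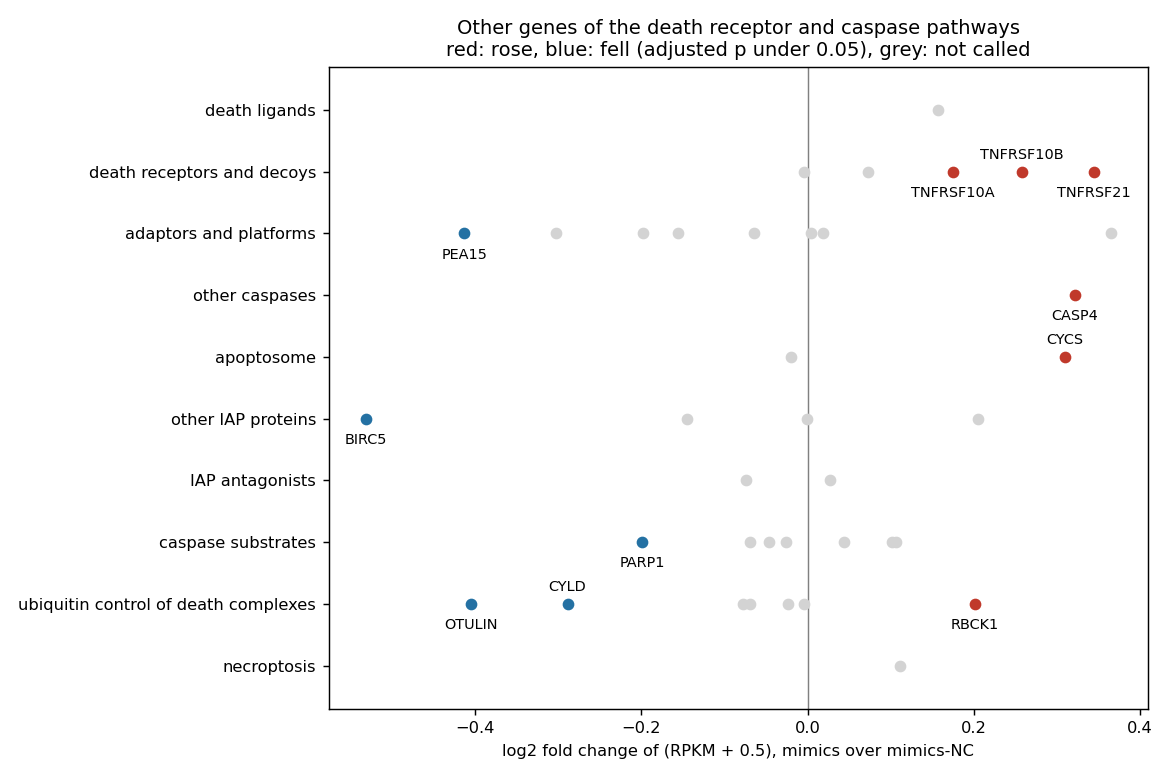
Log2 fold change of (RPKM + 0.5), mimics over mimics-NC, of the 38 tested genes of the other lists, 1 point a gene and 1 row a list (n = 3 per group); red rose, blue fell and grey did not pass. Among genes that passed, TNFRSF21 stands farthest right at 0.34 and BIRC5 farthest left at -0.53.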

How the data were processed

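The authors deposited 1 table with RPKM values of 6 libraries, beside each gene's length (another unit, bases) and its GRCh38 positions. Trimmomatic 0.36, Subread 1.5.1 with featureCounts, and edgeR 3.12.1 are named, per the submitters' processing notes. The aligner, annotation release and strand setting were not given in the sources used here. Overlapping genes of opposite strand may thus share reads. In each library RPKM times length summed to 1000000, and 100% of values gave read numbers within 0.01 of whole.

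Genes averaging 1 RPKM or more were fitted as log2(RPKM + 0.5) with limma 3.58.1 in R 4.3.3 (intensity trend, two-sided, Benjamini-Hochberg over all genes tested), and the procedure was tested on simulated data. The simulated reads had the same spread beyond counting error set for every gene, so that test does not measure error rates in these libraries. Intervals are at 95%. Alternatives changed the added value, filter, scaling, trend, block or libraries, or fitted the recovered reads with voom after TMM scaling. Members and gene lists were chosen with earlier results of these data known. All members are named, with up to 4 called genes of each list of lowest adjusted p, the most abundant to make 2, and every tested gene within 100 kb of a member. Neighbours leave out 120 table rows that span several chromosomes or over 3 megabases. Columns of the table that belong to no sample here were 0. Sequences are from RefSeq and GENCODE release 29. Some genes of the lists are not reported here and were left out of the lists' counts.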

Additional observations from a re-analysis of the deposited data

How the results depend on the processing

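CASP8 kept its direction and call under all 17 alternatives. With 1 library left out, the number of members that rose was 1 to 2, of list genes that rose 2 to 4, and of all genes called 1780 to 2150. Members that rose numbered 1 without a filter, under median-of-ratios scaling, quantile normalization and no intensity trend. Of all genes tested, 870 of 33707 rose in the first of these fits, and 1356, 1462 and 1413 of 13158 in the others in turn. In the main fit 1539 rose. Without a filter 2 list genes rose, and 1716 of 33707 genes were called, where the main fit called 2835 of 13158. By voom 9 list genes fell and 8 rose, with 1912 and 1872 of all genes against 1296 and 1539 by limma; at a filter of 0.5 RPKM, added after seeing the data, 10 list genes and 1 member (CASP2) fell and 8 and 3 rose, with 2009 and 1946 of 15506 genes. CASP2 passed in 0 of 6 limma fits at that filter with 1 library left out (adjusted p 0.108 to 0.218). With 1 library left out, the log2 fold change of CFLAR ran from -0.059 to 0.0050, the highest without mimic replicate 2. For the ratio of CFLAR to CASP8 the groups did not overlap, so leaving out 1 library could not reverse its direction. Its log2 difference then ran from -0.344 to -0.282. With the replicate number as a block, 1 member (CASP8) and 2 list genes rose, beside 1034 of 13158 genes tested. The limma adjusted p in that fit was 0.0628 for FADD and 0.0786 for XIAP. Over all genes tested, deviations from the group mean correlated at r of -0.052, -0.016 and 0.023 between same-numbered libraries. Between libraries of different number, r ran from -0.11 to 0.12. With 3 libraries a group, these values cannot show whether same-numbered libraries shared a culture or batch. The causes were not tested. The planned count models other than voom were not run. CASP2, CASP9 and CASP10 rest on 250 to 520 reads a library, which limits how small a change could be seen.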
